A study of Homo sapiens with 3 samples.

Results

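SETD8 siRNA 1 was compared with a control siRNA in IMR-90 cells, an established line of human fetal lung fibroblasts. The comparison rests on 2 of the 3 arrays of the study, 1 for each siRNA, and the third array, of a second SETD8 siRNA, was used to show which large changes were absent there. The culture medium was DMEM-F12 with serum added to 10%, and RNA was taken 24 h after transfection with RNAiMAX. The control siRNA is labelled GL3, a name the labels do not explain further. The siRNAs against the target are labelled SETD8-1 and SETD8-2, and each went into 1 culture that gave 1 Affymetrix array made from 250 ng of total RNA. The question the design puts is which transcripts differ when SETD8 is knocked down. Of the 54613 probe sets, 41091 carried a single gene symbol and stood for 19775 genes. Of these, 12307 passed a filter on mean signal over the 3 arrays and were compared, and the other 7468 were not. Each siRNA has 1 array, so the spread between cultures is unknown and no test was made. Genes are said to have risen or fallen where the signal differed at least 2-fold from the control array, which is a rule of size and not a test. A change of at least 4-fold is called large.

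SETD8, also called PR-Set7, is listed here under its current symbol KMT5A. It places 1 methyl group on histone H4 at lysine 20 and is itself removed during DNA replication by the CRL4 ubiquitin ligase with DTL as its substrate receptor. Fibroblasts answer cytokines and tissue damage through NF-kappaB, a family of transcription factors held back by inhibitors such as NFKBIA, and secrete chemokines, interleukins and prostaglandins. Growth factor receptors signal through the RAS, RAF, MEK and ERK kinases to immediate early transcription factors, and this cascade induces its own inhibitors, the dual-specificity phosphatases and the Sprouty proteins. Fibroblasts also build the extracellular matrix and the proteases that remodel it. The genes of DNA replication and mitosis are repressed together in resting cells by the DREAM complex, which binds a cell cycle homology region in many mitotic promoters.

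Promoter sequences of RefSeq (GRCh38.p14) show what genes of the large responses carry before their start sites, and 6 are printed for genes at least 4-fold changed with SETD8 siRNA 1. They were picked after the matches were seen, because each holds the motif named. Capitals mark the match. The motifs searched on both strands in the 250 bases before the first listed start were, for NF-kappaB, GGG and TTTCC with any 2 bases between them, for the interferon response element, TTTC and TTTC with any 2 bases between them, TTTGAA for the cell cycle homology region and TGANTCA for AP-1. The NF-kappaB examples are CXCL1 at chr4:73869293-73869392 (plus strand), CXCL2 at chr4:74099196-74099295 (minus strand), CXCL6 at chr4:73836578-73836677 (plus strand) and IL6 at chr7:22727100-22727199 (plus strand).
CXCL1: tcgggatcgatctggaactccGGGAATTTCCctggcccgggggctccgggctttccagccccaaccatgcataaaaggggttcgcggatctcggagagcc
CXCL2: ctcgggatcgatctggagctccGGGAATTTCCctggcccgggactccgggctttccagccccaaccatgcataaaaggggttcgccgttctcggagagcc
CXCL6: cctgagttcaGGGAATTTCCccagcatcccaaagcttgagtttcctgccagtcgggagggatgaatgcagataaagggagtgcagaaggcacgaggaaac
IL6: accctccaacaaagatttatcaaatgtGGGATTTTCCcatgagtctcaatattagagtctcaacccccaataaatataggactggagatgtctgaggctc
The stretches of CXCL1 and CXCL2 are alike over much of their length. IFI27 at chr14:94110616-94110735 (plus strand) holds a pair of interferon response elements, and the cyclin gene CCNB2 at chr15:59105046-59105145 (plus strand) holds a cell cycle homology region.
IFI27: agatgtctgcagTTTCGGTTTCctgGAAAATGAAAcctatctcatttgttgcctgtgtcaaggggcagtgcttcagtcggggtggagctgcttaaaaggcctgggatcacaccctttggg
CCNB2: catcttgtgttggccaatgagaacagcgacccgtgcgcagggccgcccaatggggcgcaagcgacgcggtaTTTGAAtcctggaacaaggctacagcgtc
None of these matches overlapped a match to another of the motifs. The NF-kappaB motif was present in 1.73% of all 27305 promoters and 2.01% of the 10031 tested genes with a listed promoter. Counts for a list cover only its tested members with a listed promoter. Some members, such as 5 of the 14 tested chemokines, had a control signal under the filter and passed it through another array. The shares are therefore partly set by the response. The NF-kappaB motif was present in 6 of 12 chemokine promoters and 5 of 16 promoters of NF-kappaB subunits and inhibitors (31.2%), but in 0 of 24 promoters of the list of other NF-kappaB target genes. The interferon element was present in 19 of 37 promoters of the interferon list (51.4%) against 3.07% of all promoters. The AP-1 motif was present in 2 of 7 metalloproteinase promoters, 3 of 12 chemokine promoters and 0 of 16 of the NF-kappaB subunits and inhibitors, against 1801 of all 27305 promoters and 3.98% of those of tested genes. The cell cycle homology region was present in 14 of 27 promoters of mitotic kinesin and spindle genes (51.9%), and in 0 of 42 of the origin licensing and fork list. It was also present in 8 of 22 histone promoters (36.4%), a list with 5 members higher and 0 lower, in 4 of 14 of the prostaglandin list, and in 13.6% of all promoters and 8.71% of those of tested genes. A match is a description of letters, not a binding site or a cause, and its lack in this window says nothing about the factor.

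The targeted gene was read by 4 probe sets. On the brightest, the KMT5A signals of the control, SETD8 siRNA 1 and SETD8 siRNA 2 arrays were 938.9, 431.4 and 584.1. Both SETD8 siRNAs therefore lay below the control, SETD8 siRNA 1 at 45.9% of it and SETD8 siRNA 2 at 62.2%. The mean log2 fold change over the 4 probe sets was -0.64 (SD 0.32) with SETD8 siRNA 1, against -0.39 (SD 0.23) with the other siRNA, where the SD describes probe sets of single arrays. On the brightest probe set 6.24% of all tested genes were as low or lower with SETD8 siRNA 1. KMT5A therefore passed the 2-fold rule with the brightest probe set (log2 -1.12) but not with the mean over probe sets. Its partner in degradation, DTL, fell from 2502.3 to 234.6. KMT5B and KMT5C, which act on H4 once it is monomethylated, had log2 values of 0.11 and -0.48.

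The median signal was 46.2, 45.3 and 44.9 on the control, SETD8 siRNA 1 and SETD8 siRNA 2 arrays, and the median log2 fold change of all tested genes was -0.02 with SETD8 siRNA 1. With SETD8 siRNA 1, 675 genes rose (5.48% of those tested) and 954 fell (7.75%). Large increases numbered 201 (1.63%) and large decreases 233 (1.89%). At the threshold, MPZL2 rose from 32.4 to 64.8 while SKIL, from 2488.0 to 4975.4, lay just under it. RPA3 fell from 2799.8 to 1399.6 while PAFAH1B3, from 912.5 to 456.3, lay just above the limit for a fall. The probe sets of 1 gene gave a measure of technical spread within the arrays: over 6151 genes with several usable probe sets, the log2 fold changes of a gene spanned a median of 0.40, and 10% of genes spanned over 1.08. Of 272 genes that rose and had several, 241 (88.6%) were positive on all of them and 143 were at least 2-fold on all. Of 393 that fell, 368 (93.6%) were negative on all and 231 were at least 2-fold lower on all. The probe sets agree or differ within the same RNA and say nothing of the spread between cultures.

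**Figure D1:**
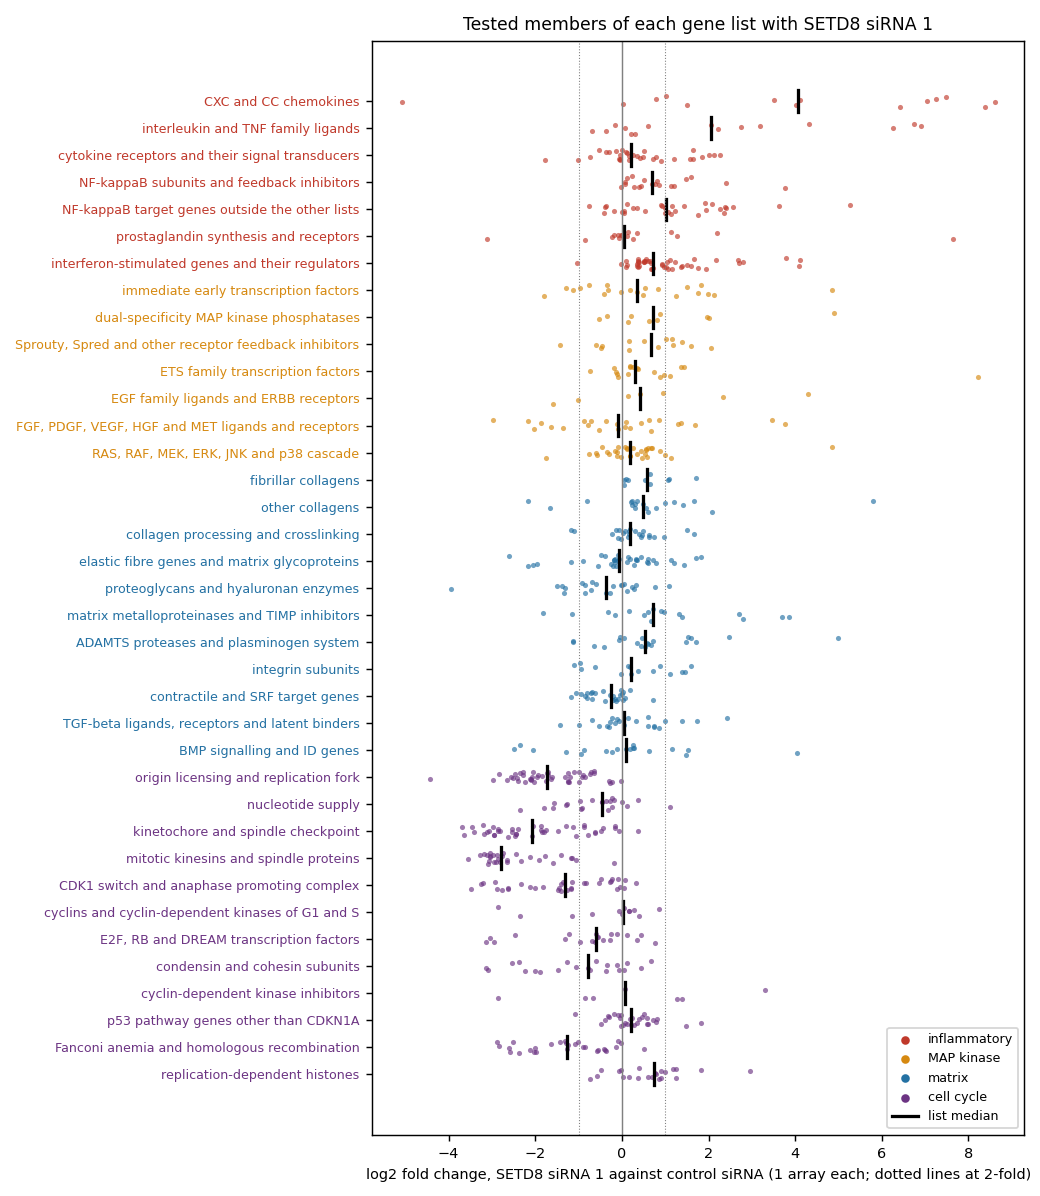
Log2 fold change with SETD8 siRNA 1 against control siRNA (x axis, 1 array each) for the tested members of the gene lists of the inflammatory, MAP kinase, matrix and cell cycle sides, with 1 point per gene and a black bar at the list median; dotted lines mark 2-fold. The chemokine median lies at 4.06 and that of the mitotic kinesins and spindle proteins at -2.79.

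On the inflammatory side increases outnumbered decreases. Of 175 tested members in 7 lists, 73 rose (41.7%) and 5 fell (2.86%), beside 5.48% and 7.75% of all genes. Their median log2 fold change was 0.72 against -0.02 for all genes. Some members passed the filter only through the SETD8 siRNA 1 array, so the count was repeated for the 164 whose control signal was above the filter. Of these 62 rose (37.8%), as did 4.66% of all genes so chosen, and their median was 0.64. Counts for the lists below are read beside the same 5.48% and 7.75% of all genes. In the text that follows, a set of 3 signals is in the order control siRNA, SETD8 siRNA 1 and SETD8 siRNA 2, and a pair of log2 fold changes is SETD8 siRNA 1 and then SETD8 siRNA 2, each against the same control array.

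Chemokines draw leukocytes toward a tissue. Of 14 tested, 11 rose, 1 fell and 2, CCL26 and CCL7, passed neither limit, beside 5.48% of all genes higher. Of those that rose 5 had a control signal under the filter, and of the 9 tested members above it 6 rose. CXCL1, a neutrophil attractant, had signals of 186.5, 24635.4 and 241.1, a 132-fold rise. CXCL6, which acts on the same receptors, had 29.3, 4464.5 and 28.0. CXCL5, a further member of that group, had 120.8, 10295.6 and 46.4. The SETD8 siRNA 1 array stood far above both others for all of these, and the other SETD8 siRNA array lay near or below the control. CXCL2 had 22.8, 7577.2 and 17.8 and CXCL3 had 50.6, 9097.3 and 40.5. These are close copies of CXCL1, and the CXCL2 probe set is of a type that can match several transcripts, so their signals may be shared. CXCL2 came to 1.40 with probe sets that can match several transcripts left out and 3.53 with all its probe sets averaged, and CXCL5 to 3.24 without such probe sets. CCL20, which attracts dendritic cells and lymphocytes, had 1.3, 4561.0 and 8.3. Both other arrays lay under the floor of 11.7, so the rise was at least 389.8-fold. CXCL8, interleukin 8, was already well above the filter in the control and reached 30857.2 from 1779.7. Its second probe set gave a log2 value of 6.40 against 4.12, and the highest signal on that array was 36638.9. The interferon-induced attractants of T cells CXCL10 and CXCL11 rose as well, with log2 pairs of 4.01 and 0.13 and 3.52 and 1.31. The monocyte attractant CCL2 rose by 1.02, just past the limit.

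CXCL12, which retains stem cells and leukocytes through CXCR4, went the other way. Its signals were 546.7, 16.2 and 1478.8, a 33.7-fold fall with SETD8 siRNA 1, while the other SETD8 siRNA array lay above the control. A second probe set gave log2 values of -2.63 and 0.36. CXCL12 was the gene with the lowest log2 fold change of all tested.

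Among 15 tested interleukins and TNF family ligands 8 rose and 0 fell, and of the 14 with a control signal above the filter 7 rose. IL1B, a secreted fever and inflammation signal, had signals of 269.4, 20515.4 and 57.6. IL1A, its partner that also acts from dying cells, had 89.7, 10735.0 and 41.9. For both, the SETD8 siRNA 1 array was the highest and the SETD8 siRNA 2 array lay under the control, and the second probe set of IL1A, under the filter, gave a log2 value of -0.50. TNFSF15, a T cell costimulator, had 163.9, 17619.4 and 133.7 and read alike on 2 probe sets (6.75 and 6.76). IL6, the fibroblast cytokine that drives the acute phase response, had 752.6, 14925.4 and 1193.0. Its relatives through the same signalling receptor rose too, IL11 from 1142.0 to 7625.8 and LIF from 842.3 to 3530.3. IL24 rose from 58.3 to 533.0 and the death ligand TNFSF10 from 31.2 to 145.1. The members that passed neither limit included IL15, CSF1 and TSLP, with SETD8 siRNA 1 values of -0.68, -0.36 and 0.21.

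Of 32 tested receptors and signal transducers 8 rose (25%) and 2 fell (6.25%), beside 5.48% and 7.75% of all genes, with a median of 0.21. IL1RAP, the shared chain of the interleukin 1 receptor, rose by 2.26, although a second probe set gave -0.09, and the kinase IRAK2 behind it rose by 1.85. With their probe sets averaged these came to 1.09 and 1.18. The receptor itself, IL1R1, had 0.91. IL13RA2, a decoy for interleukin 13, had 189.6, 830.3 and 87.6, above the control with SETD8 siRNA 1 and below it with SETD8 siRNA 2. The adaptor MYD88 (-0.14), the kinase JAK1 (0.00) and STAT3 (0.16) were near the control. LIFR, the receptor of LIF, fell by 1.77, or by 0.95 with its probe sets averaged, and the feedback inhibitor SOCS1 fell by 1.01.

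Of 19 tested NF-kappaB subunits and feedback inhibitors, 6 rose and 0 fell, against 5.48% of all genes that rose, and 1 of the 6 was a subunit. NFKBIZ, a nuclear cofactor that NF-kappaB itself induces, had signals of 779.9, 10671.4 and 2127.5. TNFAIP3, the ubiquitin editor A20, had 508.6, 2694.2 and 349.1 and read alike on both probe sets. NFKBIA had 2092.9, 5830.1 and 1287.3, the lowest value being that of SETD8 siRNA 2. Its second probe set, under the filter at 30.3 and 36.5 in the first 2 arrays, gave 0.27, and the mean over both was 0.87. TNIP1, which assists A20, rose by 1.59, NFKBIE by 1.14 and the subunit NFKB1 by 1.21. The subunits RELA, REL, RELB and NFKB2 had 0.22, 0.85, 0.69 and 0.52, and the kinases CHUK, IKBKB and IKBKG lay between -0.03 and 0.11, all under the limit. Of 32 tested target genes held in no other list, 16 rose and 0 fell. BCL2A1, an anti-apoptotic protein, had 57.1, 2209.6 and 34.0. The adhesion molecule ICAM1 had 349.2, 4335.3 and 337.1 and NAMPT, an NAD-making enzyme that is also secreted, had 1747.8, 9256.7 and 1228.1. The early response gene IER3 had 5885.3, 30044.9 and 4979.1. In each of these the SETD8 siRNA 1 array stood alone above the other arrays. The complement gene C3 differed, with 51.4, 303.1 and 263.4, high with both SETD8 siRNAs. VCAM1 (0.05), PTX3 (0.26) and CEBPB (0.91) passed neither limit.

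PTGS2, cyclooxygenase 2, makes the precursor of prostaglandins after inflammatory stimuli. Its signals were 96.5, 19178.0 and 149.9, a 199-fold rise, and the second probe set gave a log2 value of 8.17. PLA2G4A, which frees the arachidonic acid it uses, had 429.7, 1958.0 and 143.7, above the control with SETD8 siRNA 1 and below it with SETD8 siRNA 2. The prostaglandin E synthase PTGES rose from 108.9 to 239.7. The constitutive cyclooxygenase PTGS1 had 0.26. The prostaglandin E receptor gene PTGER2 fell, with 2548.5, 292.7 and 833.3, whereas PTGER4 had -0.19. Of the 16 tested members of this list 4 rose (25%) and 1 fell (6.25%), beside 5.48% and 7.75% of all genes. The median was 0.06.

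Interferon-stimulated genes are induced by viral sensing and block viral growth. Of 47 tested, 20 rose and 1 fell, with a median of 0.73. With a control signal above the filter they were 43, of which 16 rose. The membrane tether BST2 had 6.6, 202.7 and 34.9, and since the control lay under the floor the rise was at least 17.3-fold. The GTPase MX1 had 24.5, 417.0 and 209.7, and IFI27, whose promoter is printed above, had 92.3, 1273.4 and 450.5. These 3 were high with both SETD8 siRNAs, more so with SETD8 siRNA 1. XAF1 had 144.0, 1001.4 and 261.7 and the synthetase OAS1 29.6, 113.6 and 35.2, and with SETD8 siRNA 2 these lay under 2-fold above the control. The ubiquitin-like ISG15 had 2859.0, 9711.9 and 6545.9 and the RNA sensor IFIH1 177.0, 500.2 and 137.2. IFIT2 was the member that fell (-1.04), and its neighbours IFIT1 and IFIT3 had 0.57 and 0.97.

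**Figure D2:**
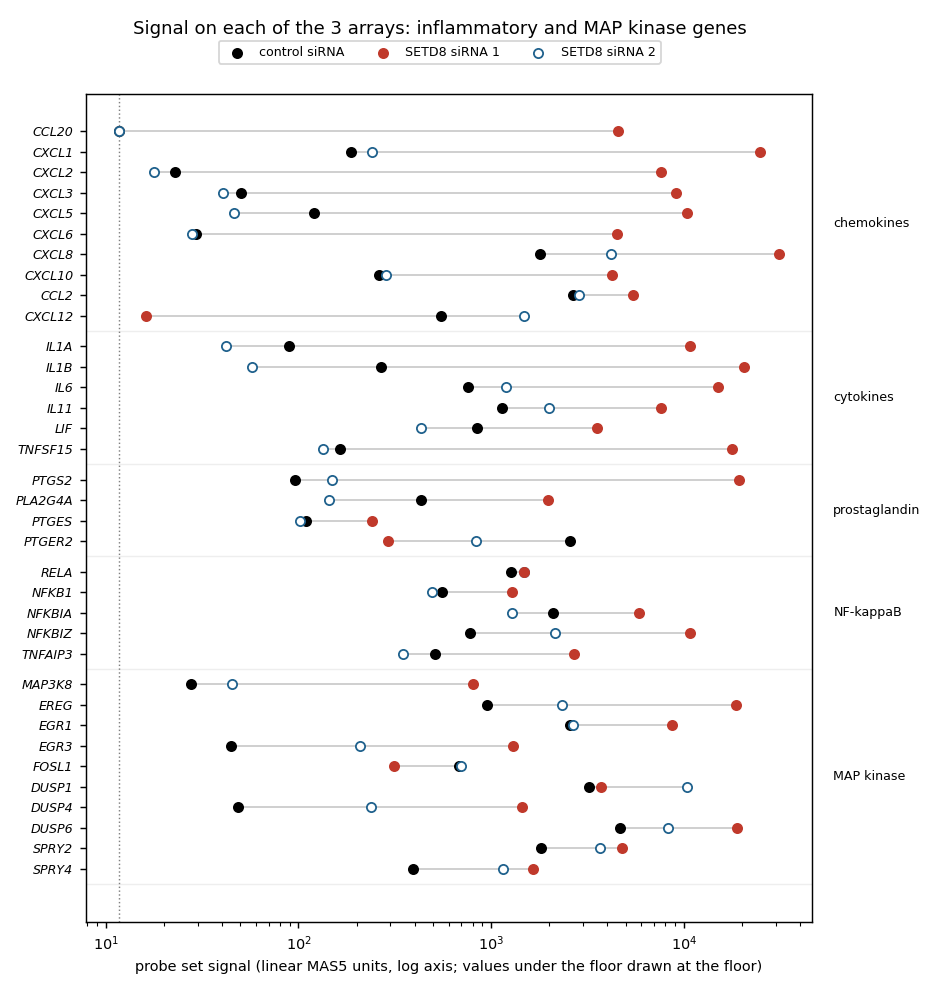
Probe set signal (x axis, log scale) of inflammatory and MAP kinase genes on the arrays of control siRNA (black), SETD8 siRNA 1 (red) and SETD8 siRNA 2 (open blue), 1 array each; the dotted line is the floor of 11.7. CXCL1 lies at 24635.4 with SETD8 siRNA 1 against 186.5 and 241.1 on the other arrays, and CXCL12 lies lowest with SETD8 siRNA 1.

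On the MAP kinase side 30 of 127 tested members rose (23.6%) and 13 fell (10.2%), beside 5.48% and 7.75% of all genes, with a median of 0.21. With a control signal above the filter, 27 of 124 rose (21.8%). Of the kinases and GTPases of the cascade list, 3 of 32 rose (9.4%).

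The immediate early transcription factors went both ways, with 7 of 21 higher and 3 lower. EGR3 had signals of 44.5, 1289.2 and 209.6 and EGR1 had 2557.6, 8698.7 and 2651.8. For EGR3 both SETD8 siRNA arrays lay above the control, and for EGR1 SETD8 siRNA 1 stood alone. The stress-induced factor ATF3 had 566.2, 2482.1 and 665.9, the small Maf protein MAFF 5649.1, 20105.3 and 7696.9 and JUNB 182.8, 434.1 and 341.5. The AP-1 subunit FOSL1 fell, with 680.3, 311.5 and 695.0, and KLF4 and KLF2, Krüppel-like factors that restrain growth and inflammation, had 720.4, 206.3 and 1047.0 and 784.7, 323.5 and 1387.8. All 3 were lowest with SETD8 siRNA 1. MYC and JUN had -0.32 and 0.19. FOS itself was not tested because its mean lay under the filter, and its signals were 13.1, 214.6 and 11.3.

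The dual-specificity phosphatases remove phosphate from ERK, p38 and JNK. Of 10 tested, 3 rose and 0 fell. DUSP4 had 48.5, 1444.6 and 236.4 and rose on all 3 probe sets (2.64 to 4.90). DUSP6, specific for ERK, had 4633.1, 18716.6 and 8209.0. DUSP2 had 31.8, 124.7 and 31.9. The SETD8 siRNA 1 array was highest in all 3 genes. DUSP1 differed, with 3198.4, 3711.7 and 10375.2, near the control with SETD8 siRNA 1 on this probe set and high with SETD8 siRNA 2. The other usable probe set gave log2 values of -0.92 and 1.26. Of 14 tested Sprouty, Spred and related inhibitors, 6 rose and 1 fell. SPRY4 had 393.7, 1639.8 and 1144.0 and SPRY2 1811.3, 4762.0 and 3658.0, both high with both SETD8 siRNAs. SPRY1 had 259.3, 782.1 and 217.9 and SPRED2 1017.3, 2264.8 and 1022.0, high with SETD8 siRNA 1 alone, and SPRED2 came to 0.58 with its probe sets averaged. LRIG3 fell by 1.42, while LRIG1 had -0.47.

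Among 18 tested ETS factors, which carry ERK signals to DNA, 4 rose. EHF, normally of epithelia, had 13.9, 4156.5 and 596.9, with the control next to the floor, and 3.35 on the log2 scale with its probe sets averaged. ETV1 and ETV4, known ERK-induced members, rose by 1.43 and 1.36, while ETV5 had -0.11. The fourth, SPDEF, had 1.12 on the probe set used and -0.35 on the next brightest.

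Of 7 tested EGF family ligands and receptors 2 rose and 2 fell. EREG, epiregulin, had 949.9, 18658.9 and 2328.5, and NRG1, neuregulin, had 376.1, 1910.2 and 1755.6. Both were above the control with each SETD8 siRNA, EREG far more so with SETD8 siRNA 1. HBEGF had 0.96, just under the limit. EGF had 68.3, 22.7 and 159.0, lowest with SETD8 siRNA 1 and highest with SETD8 siRNA 2. The receptor EGFR had 0.43 and ERBB2 -1.02, the latter -0.10 with its probe sets averaged. Of 25 tested FGF, PDGF, VEGF and HGF ligands and receptors, 5 rose and 6 fell. GDF15, a stress-induced TGF-beta family hormone kept in this list, had 1642.9, 22452.5 and 1748.5, although a second probe set gave 1.48 and the mean over its probe sets was 2.42. The VEGF receptor FLT1 had 242.0, 2688.3 and 1164.7 and VEGFA 2506.6, 8027.2 and 1913.0. FLT1 came to 2.23 with its probe sets averaged. Those that fell included MET, the receptor of HGF, with 2146.3, 272.2 and 3223.4, and FGF5 with 1616.2, 361.1 and 1664.0. A second, dimmer probe set of MET gave 0.02, and the mean over its probe sets was -1.17. FGF1 had 324.1, 88.4 and 999.1, lowest with SETD8 siRNA 1 and highest with SETD8 siRNA 2, and KIT had 397.7, 97.9 and 138.2.

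In that cascade list 1 member fell (3.1%, beside 7.75% of all genes). MAP3K8, also called TPL2, a kinase that links NF-kappaB to MEK and ERK, had 27.8, 800.3 and 45.2. It came to 3.21 with its probe sets averaged and to 1.57 on the probe set that does not match several transcripts. The other members that rose were RPS6KA3 (1.13) and the p38 isoform MAPK13 (1.01, or 0.96 with log2(signal + 16)). MAP3K14, the kinase of the alternative NF-kappaB route, fell by 1.74 on the log2 scale. MAP2K1, MAP2K2 and MAPK3 had 0.67, 0.11 and -0.30. Signals of transcripts do not report the activity of these kinases.

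On the matrix side 39 of 234 tested members rose (16.7%) and 26 fell (11.1%), beside 5.48% and 7.75% of all genes, and the median was 0.14. With a control signal above the filter, 34 of 226 rose. The brightest probe sets of the main fibrillar collagens passed neither limit, COL1A1 at 33451.1, 36638.9 and 34357.1, COL1A2 at 27180.1, 27990.1 and 26109.0 and COL3A1 at 25413.6, 26989.2 and 17971.4. COL1A1 held the highest signal of the control and SETD8 siRNA 1 arrays, where probe sets may saturate, which was not tested. Over all usable probe sets the log2 values ran from -0.03 to 0.94 for COL1A1, from -0.84 to 0.04 for COL1A2 and from -0.65 to 0.13 for COL3A1. Of 10 fibrillar collagens 3 rose, among them COL27A1 (1.07) and COL5A3, with 236.9, 507.3 and 53.6, below the control with SETD8 siRNA 2. COL5A3 came to 0.93 with its probe sets averaged.

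Other collagens gave 5 higher and 2 lower of 19 tested. COL10A1, the short-chain collagen of growth plate cartilage, had signals of 49.8, 2751.1 and 42.0 and rose on both probe sets (5.32 and 5.79). The basement membrane chain COL4A6 had 607.9, 2570.0 and 862.0, and COL7A1, which anchors epidermis to dermis, had 625.7, 1972.6 and 596.8. In these 3 the SETD8 siRNA 1 array was the highest and the other SETD8 siRNA lay within 1.5-fold of the control. COL4A5 rose by 1.41, but by 0.86 with its probe sets averaged. COL15A1, of the zone next to basement membranes, fell with both SETD8 siRNAs, at 4303.9, 966.4 and 1073.5. Among 24 genes of collagen processing 2 rose and 2 fell (8.33% each), beside 5.48% and 7.75% of all genes. ADAMTS3 and the crosslinking enzyme TGM2 rose (1.67 and 1.51). LOXL1 fell, from 2798.6 to 1241.0, while LOX had -0.09. The prolyl hydroxylase P3H2 had 3647.4, 1708.3 and 10245.9, lowest with SETD8 siRNA 1 and highest with SETD8 siRNA 2, but its fall came to 0.55 with its probe sets averaged.

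Of 37 tested matrix glycoproteins and elastic fibre genes, 5 rose and 5 fell (13.5% each), beside 5.48% and 7.75% of all genes. FN1, fibronectin, had 29570.6, 32536.1 and 30594.9 and SPARC 0.12 on the log2 scale. CCN4 had 1344.3, 4429.2 and 1117.0 and MFAP2, a microfibril protein, 360.0, 974.2 and 293.7, both high with SETD8 siRNA 1 alone. POSTN, periostin, had 11197.1, 24523.5 and 412.1, where the SETD8 siRNA 2 array stood far under the other 2. SPP1, osteopontin, had 119.0, 420.7 and 36.2, on opposite sides of the control, and its rise came to 0.72 with its probe sets averaged. EFEMP1, a fibulin, fell, with 4078.5, 984.4 and 7750.8, and the cartilage matrix protein MATN3 had 700.0, 155.5 and 471.0. ABI3BP fell by 2.60, or by 0.79 with its probe sets averaged. Among 23 proteoglycans and hyaluronan genes 1 rose and 5 fell, with a median of -0.36. CEMIP, which degrades hyaluronan, had 5210.5, 337.2 and 1724.1, and its log2 value of -3.95 came to -1.97 with its probe sets averaged. DCN, decorin, which binds collagen and TGF-beta, had 20075.4, 7745.9 and 22971.2, and its 5 usable probe sets ranged from -2.60 to -1.37. CSPG4 had 621.4, 220.0 and 440.1 and SDC1, a syndecan, 670.3, 266.0 and 278.4. DCN was near the control with SETD8 siRNA 2, whereas SDC1 fell there as well. GPC3, the member that rose, had 1.08, and -0.43 with its probe sets averaged.

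Of the 10 large increases on the matrix side, 4 were metalloproteinases. Of 17 tested metalloproteinases and inhibitors 6 rose and 2 fell, and 4 of 14 with a control signal above the filter rose. MMP3, stromelysin, had signals of 1416.8, 20538.7 and 1322.3, and MMP10, its close relative, had 87.9, 1144.3 and 25.9. MMP7 had 30.7, 211.7 and 28.5 and MMP12 34.5, 226.1 and 48.6, both from control signals under the filter. The SETD8 siRNA 1 array was the highest for all 4, and MMP10 was lowest with SETD8 siRNA 2. MMP14, the membrane collagenase, rose from 2043.7 to 5316.0. MMP1, interstitial collagenase, had 17604.0, 33063.8 and 4444.1, a log2 value of 0.91 under the limit. The inhibitors TIMP1, TIMP2 and TIMP3 had 0.52, 0.16 and -0.31, and the membrane inhibitor RECK fell, with 5497.5, 2468.6 and 8967.4. MMP28 fell by 1.81 on the probe set used, while its next brightest probe set gave 0.92.

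Of 21 ADAMTS, ADAM and plasminogen genes 6 rose and 2 fell. THBD, thrombomodulin, which turns thrombin into an anticoagulant, had 6.9, 371.7 and 75.6, at least 31.8-fold higher since the control lay under the floor. With probe sets that can match several transcripts left out its log2 value was 3.27. ADAM19 had 1218.0, 6732.6 and 3312.1 and PLAT, tissue plasminogen activator, 5258.6, 17236.6 and 11199.2, each high with both SETD8 siRNAs. With probe sets averaged ADAM19 came to 1.54. TFPI2, a protease inhibitor of the matrix, had 8445.0, 25348.5 and 1428.4, on opposite sides of the control. ADAMTS1 fell from 7860.0 to 3593.6. Of 15 integrin subunits 4 rose, among them the collagen receptor chains ITGA1 (1404.8, 3676.7 and 1376.0) and ITGA11 (464.6, 1398.4 and 640.0). ITGB8, which activates TGF-beta, had 808.2, 2207.1 and 80.3, again on opposite sides of the control, and 0.48 with SETD8 siRNA 1 when its probe sets were averaged.

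Of 26 contractile genes of myofibroblasts 0 rose and 2 fell (7.69%, beside 7.75% of all genes), and the median was -0.24. ACTA2, smooth muscle actin, had 15225.9, 16060.5 and 27518.5. TAGLN and CNN1, which bind actin filaments, had 14190.0, 6804.4 and 22028.5 and 2442.2, 1084.1 and 5749.6. Both fell with SETD8 siRNA 1 and lay above the control with SETD8 siRNA 2. TGF-beta ligands, receptors and latent binders gave 3 higher and 1 lower of 23. INHBA, the activin A subunit, had 9809.4, 32485.3 and 15565.6, and LRRC32, which displays latent TGF-beta, had 139.3, 743.7 and 197.4. TGFB1 had 0.61 and TGFBR3, a coreceptor, fell by 1.42. In the BMP list 4 of 19 rose and 4 fell. BMP2 had 1034.5, 17049.2 and 1370.8 and rose on both probe sets (4.04 and 4.62). Its antagonist NOG had 689.6, 135.4 and 4505.9, the BMP effector SMAD9 1242.8, 302.2 and 1592.5 and its target ID2 2546.3, 1034.1 and 7136.9. These 3 were lowest with SETD8 siRNA 1, SMAD9 by 1.02 with its probe sets averaged, and NOG and ID2 were highest with SETD8 siRNA 2. SMAD1 had 2129.9, 6164.7 and 655.8, the reverse order. ID1 and ID3 had 0.10 and 0.25.

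**Figure D3:**
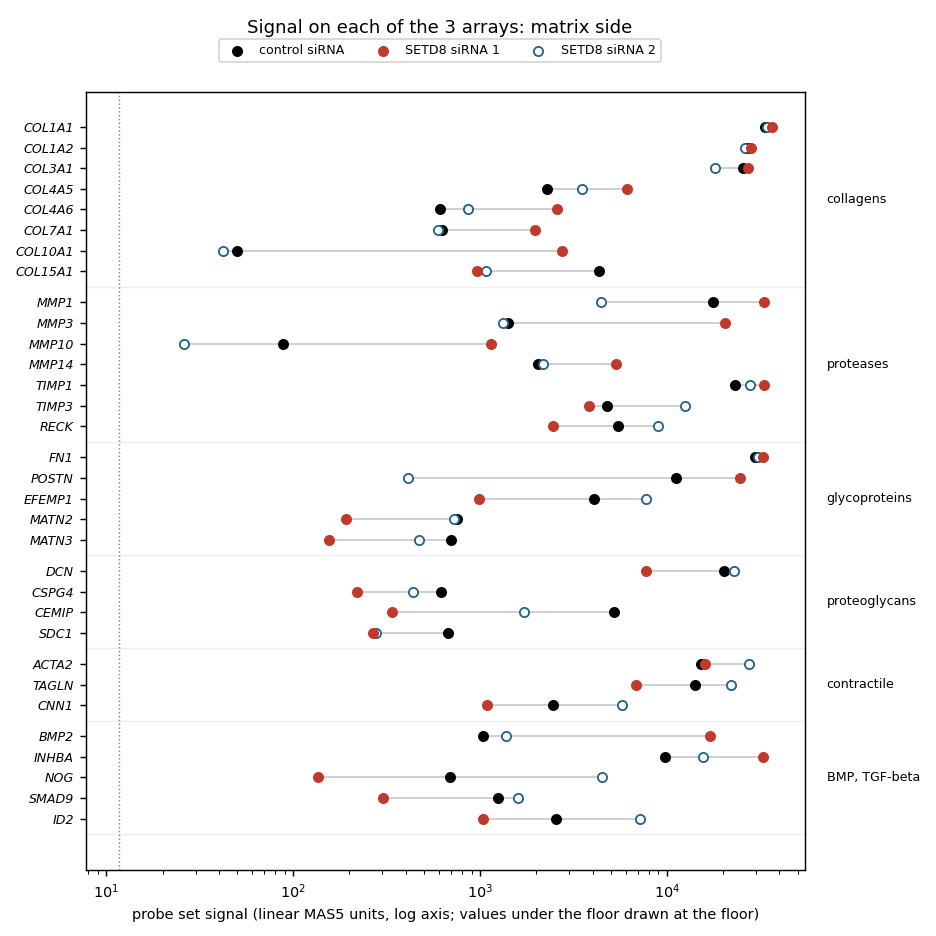
Probe set signal (x axis, log scale) of matrix genes on the arrays of control siRNA (black), SETD8 siRNA 1 (red) and SETD8 siRNA 2 (open blue), 1 array each; the dotted line is the floor of 11.7. COL10A1 and MMP3 lie high with SETD8 siRNA 1 alone, POSTN lies lowest with SETD8 siRNA 2 (412.1), and COL1A1 and FN1 nearly coincide on all 3 arrays.

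The cell cycle side moved mostly downward. Of 317 tested members 163 fell and 11 rose, against 7.75% and 5.48% of all genes, with a median of -1.06. Because the arrays read whole cultures, fewer dividing cells and less transcript per cell cannot be told apart. SETD8 siRNA 2 gave 158 lower and 15 higher members against 6.65% and 4.46% of all genes, and both comparisons share the control array. Of the 98 large decreases with SETD8 siRNA 1 in these lists, 0 were absent with SETD8 siRNA 2.

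The list medians ran from -2.79 to 0.74 over the parts of the cycle. The kinesins and spindle proteins had 29 of 30 members lower and a median of -2.79, the kinetochore and checkpoint list 32 of 43 and -2.08, and origin licensing and fork genes 36 of 48 and -1.72. The Fanconi and recombination genes had 18 of 29 lower with a median of -1.28, the CDK1 and anaphase promoting complex list 21 of 34 with -1.30, and nucleotide supply 6 of 22 with -0.45. Within kinetochores, the outer NDC80 complex fell throughout: SPC25 had 1406.7, 108.6 and 117.2, NUF2 2303.6, 209.0 and 399.6 and NDC80 2811.6, 307.2 and 379.9. Of the centromere proteins, CENPT, CENPB and CENPC had 0.38, -0.17 and -0.61, while CENPF had -3.42. CENPT was the only tested member of the kinetochore list above the control, and 42 lay below it. Of the anaphase promoting complex, the activator CDC20 (2738.9, 246.1 and 401.4) and the ubiquitin carrier UBE2C (5631.3, 740.2 and 917.3) fell, whereas the structural subunits CDC16, CDC26, CDC27, ANAPC2 and ANAPC5 lay between -0.11 and 0.32.

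At origins, the MCM2 to MCM7 helicase subunits fell by 1.21 (MCM7) to 2.52 (MCM2), and the loader CDT1 had 1364.5, 63.6 and 217.3. A second, dim probe set of CDT1 gave -0.44, and the mean over its probe sets was -2.43. The origin recognition subunits ORC1 and ORC6 fell by 2.25 and 2.03, while ORC2, ORC3, ORC4 and ORC5 lay between -0.65 and -0.03. The polymerase subunit POLE2 had 1188.6, 189.0 and 218.6 and the initiator MCM10 828.3, 105.9 and 164.5. The sliding clamp PCNA had -0.92, under the limit. RRM2, the regulated subunit of ribonucleotide reductase, fell from 11395.8 to 2234.1, whereas RRM2B, its p53-responsive alternative, rose from 2332.5 to 5018.3.

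Mitotic entry genes fell with both SETD8 siRNAs: CDK1 had 5885.8, 802.3 and 1552.4, cyclin B1, CCNB1, 8748.9, 1412.1 and 1388.1, and CCNB2, whose promoter is printed above, 4952.5, 728.0 and 828.0. With its probe sets averaged CCNB2 came to -1.52. The proliferation marker MKI67 fell by 2.51. The D-type cyclins CCND1, CCND2 and CCND3 had 0.27, 0.86 and 0.16 and cyclin E1, CCNE1, 0.06. Cyclin E2, CCNE2, fell, with 1216.5, 166.5 and 362.2. Of 20 tested E2F, RB and DREAM transcription factors 6 fell (30%), beside 7.75% of all genes, and 0 rose. FOXM1, MYBL2 and E2F8 fell by 2.48, 2.94 and 3.13, and RBL1, LIN9 and LIN54 by 3.05, 1.32 and 1.22. Under the settings run, RBL1 lay between -3.05 and -1.55 and LIN9 between -1.32 and -0.90. E2F3, RB1 and RBL2 had 0.11, -0.25 and -0.12.

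The 11 cell cycle members that rose were 3.47% of those tested, beside 5.48% of all genes. Of these 11, 5 were histone genes, 3 inhibitors of cyclin-dependent kinases, 2 p53 pathway genes and 1 RRM2B. CDKN2B, p15, had 742.7, 7373.0 and 1230.0, a 9.93-fold rise. CDKN1A, p21, had 6063.7, 15759.9 and 8246.7. CDKN2A, which encodes p16 and ARF, had 432.5, 1040.0 and 1114.8, and 0.83 with its probe sets averaged. CDKN2B and CDKN1A were highest with SETD8 siRNA 1, and CDKN2A was alike with both SETD8 siRNAs. CDKN1B, p27, had -0.85, and CDKN3, a phosphatase kept in this list, fell by 2.86. Of 29 p53 pathway genes 2 rose (6.90%) and 1 fell (3.45%), beside 5.48% and 7.75% of all genes. CDKN1A and RRM2B, which rose, were counted in other lists and are not among these 29. The share therefore depends on how genes were assigned to lists. SERTAD1 rose by 1.48, and PLK3 by 1.83 but by 0.40 with its probe sets averaged. MDM4 fell by 1.07, or by 0.72 averaged. Replication-dependent histone genes gave 5 higher (22.7%) and 0 lower of 22. Among them were H4C8 (176.5, 621.5 and 727.0) and H2BC4 (318.5, 758.6 and 974.3), which were as high with SETD8 siRNA 2. With SETD8 siRNA 2, 11 members of the list rose and 1 fell, beside 4.46% and 6.65% of all genes. The list medians were 0.74 and 0.99. How well the arrays read histone transcripts was not tested. Histone genes are near-identical copies, and their probe sets may share transcripts.

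**Figure D4:**
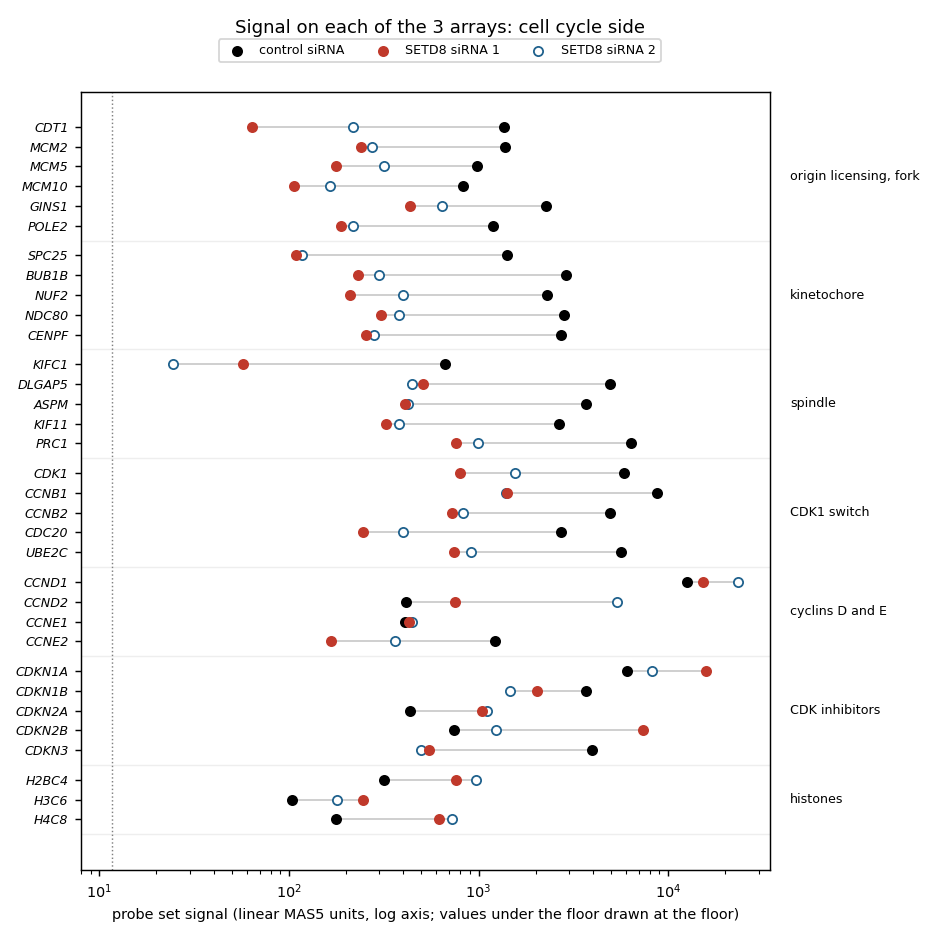
Probe set signal (x axis, log scale) of cell cycle genes on the arrays of control siRNA (black), SETD8 siRNA 1 (red) and SETD8 siRNA 2 (open blue), 1 array each; the dotted line is the floor of 11.7. The control array is the highest for the drawn licensing, kinetochore, spindle and CDK1 genes, and CDKN2B is highest with SETD8 siRNA 1 at 7373.0.

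Large changes with SETD8 siRNA 1 were called absent with SETD8 siRNA 2 where the latter lay under 1.5-fold in the same direction or went the other way. Of the 201 large increases 87 were absent (43.3%, or 0.707% of all tested genes), and of the 233 large decreases 46 (19.7%, or 0.374%). With the siRNAs exchanged, 40 of 94 large increases and 43 of 201 large decreases with SETD8 siRNA 2 were absent with SETD8 siRNA 1 (0.325% and 0.349% of all tested genes). Those 94 and 201 genes were 0.764% and 1.63% of all tested. Some large increases with SETD8 siRNA 1 passed the filter only through that array. A gene low on both other arrays then tends to count as absent. With the filter on the control array alone, a setting chosen after seeing the data, 70 large increases and 81 large decreases with SETD8 siRNA 1 were absent with SETD8 siRNA 2. Both comparisons use 1 control array, and a single array on each side cannot separate a difference between siRNAs from one between cultures.

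Absent increases were counted for each side with the filter on mean signal, so genes that passed only through the SETD8 siRNA 1 array are among them. The inflammatory side held 39 large increases, of which 24 were absent, and they included 7 of 9 among chemokines and 6 of 8 among interleukins and TNF ligands. Of 8 large increases in the list of other NF-kappaB targets 7 were absent, but of 7 in the interferon list 1 was. The matrix side had 8 absent of 10, among them COL10A1, COL4A6, BMP2, LRRC32 and the metalloproteinases MMP3, MMP7, MMP10 and MMP12. The MAP kinase side had 2 absent of 11, GDF15 and ATF3. The cell cycle side had 2 large increases and 0 absent. The remaining 139 lay in none of the lists of these sides, and 53 of them were absent. Among these IGFBP1, a secreted IGF binding protein, had 23.5, 1165.0 and 23.0, the GABA receptor subunit GABRA2 119.7, 3119.2 and 70.7 and the sulfotransferase CHST2 200.3, 4098.4 and 168.1. The SETD8 siRNA 1 array stood alone in each, and IGFBP1 came to 2.82 on the log2 scale with its probe sets averaged.

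Of the 46 large decreases absent with SETD8 siRNA 2, 39 lay in none of the lists of the 4 sides, as did 11454 of all 12307 tested genes. OXTR, the oxytocin receptor, had 1952.3, 108.5 and 3058.2, and the secreted glycoprotein RELN, reelin, had 1569.8, 155.1 and 1222.8. The muscarinic receptor CHRM2 had 141.8, 5.5 and 151.2 and the complement component C7 132.8, 3.4 and 229.4. Since their SETD8 siRNA 1 signals lay under the floor, these falls were at least 12.1-fold and 11.4-fold. In all 4 genes the control and SETD8 siRNA 2 arrays lay within 2-fold of each other. The Wnt antagonists DKK1 and SFRP1, of a further list counted below, had 4462.2, 750.5 and 8349.4 and 14402.3, 3539.3 and 11722.5. PPARG, the fat cell regulator, had 779.1, 71.7 and 514.8 and came just short of the rule. Of the genes in the lists of the 4 sides, CXCL12, MET, FGF5, EFEMP1, MATN3, NOG and SMAD9 were among the absent decreases.

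**Figure D5:**
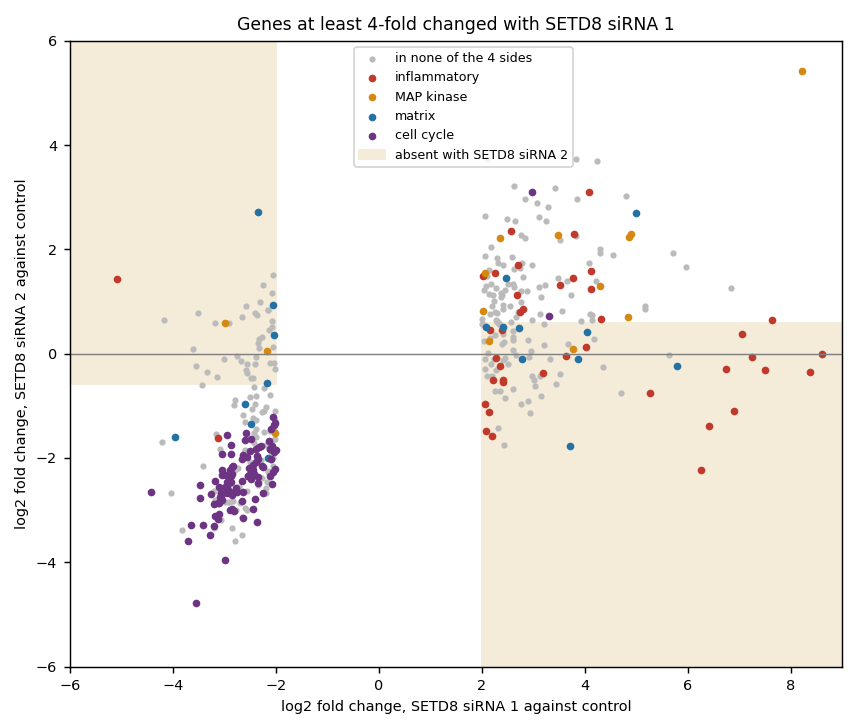
Log2 fold change with SETD8 siRNA 2 (y axis) against that with SETD8 siRNA 1 (x axis) for the 201 large increases and 233 large decreases with SETD8 siRNA 1; both axes use the same control array, so the positions are not independent. Shading marks changes called absent with SETD8 siRNA 2, 87 increases and 46 decreases, and the purple cell cycle genes at the lower left all lie outside it.

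The labelled cell type was checked against marker genes. All 14 fibroblast markers passed the filter. With SETD8 siRNA 1, 0 rose and 2 fell (14.3%), FBLN1 and DCN, beside 5.48% and 7.75% of all genes. The summed signal of the 14 was 170572, 162762 and 178791 on the 3 arrays. Of 14 epithelial markers 5 passed, 0 rose and 1 fell. KRT18 had 2987.4, 2962.8 and 6010.1, KRT8 106.1, 126.2 and 233.7 and EPCAM, the marker that fell, 157.1, 49.1 and 194.2, while SFTPB and SFTPC had log2 values of 0.45 and -0.23. CDH1 and NKX2-1 lay under the filter, between 17.7 and 23.4 and between 8.6 and 10.5. Of 12 measured leukocyte markers 4 passed, none above a signal of 66.0, and PTPRC had 31.1, 23.1 and 15.9. Of 10 endothelial markers 4 passed and 3 rose, ROBO4 with 105.3, 576.4 and 58.5, PECAM1 with 49.0, 135.0 and 52.7 and VWF with 59.7, 130.5 and 80.9, while CDH5 and TIE1 lay under the floor on all 3 arrays. Second probe sets of ROBO4 and PECAM1 gave 0.28 each. The summed endothelial signal was 1511.7, 2193.6 and 2292.2, most of it from TEK, the fourth marker that passed, at 1251.3, 1274.8 and 2033.1, and its part in the increases of THBD, FLT1 and ICAM1 was not tested. Of 8 smooth muscle and pericyte markers 7 passed, 1 rose and 2 fell: RGS5 had 308.9, 2412.3 and 1006.0, with log2 values of its probe sets from -0.88 to 3.62, KCNJ8 300.0, 124.2 and 44.8 and CSPG4 as given above.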

How the data were processed

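Total RNA of 3 IMR-90 cultures was read on 1 Affymetrix array each. The intensity values are the linear signals per probe set that the authors deposited. Per the submitters' processing notes MAS5 made them. Which version and target value it ran with is not given in the sources used here. Trimmed means (2% off each end) of 497, 496 and 496 show that arrays had been scaled alike, so no further scaling was applied. Any change in total RNA per cell is lost by such scaling.

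Control probe sets were dropped. Of 54613 probe sets 41091 had 1 symbol in the platform table, 1801 had several and 11721 were not listed there, and 41037 of the former matched RefSeq (GRCh38.p14), which updated the symbol. Signals were floored at 11.7 (the 25th percentile of all values) and log2 transformed, and the probe set of highest mean stood for its gene. Genes with a mean log2 signal of at least 5.39 (signal 42.0, the 50th percentile) were compared. With the control at the floor a fold is a lower bound. Levels of different probe sets were compared only for the filter, the brightest probe set, the highest signal of an array and the marker signals.

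There is no test. A change is a difference of at least 2-fold, large is at least 4-fold, and absent is under 1.5-fold with the other siRNA in the same direction. Genes to be named were KMT5A, the 20 largest changes each way, up to 6 members per list past 2-fold, the 20 largest absent changes each way and a fixed set, of which 2 are not analysed here, in all 269. Members and lists were chosen with earlier results of these data known. Every gene named with a value outside this rule was chosen after its values were seen: the list members under 2-fold, further members of the lists such as CCL2, CXCL11, LIF, TNFSF10, SOCS1, OAS1, ISG15, IFIH1, IFIT2, JUNB, KLF2, VEGFA, MFAP2, POSTN, RECK, ADAMTS1, ID2, ORC1, ORC6, MCM7 and RRM2B, the cell type markers, and the genes next to the threshold. The settings varied were quantile or median scaling, another floor or a pseudocount of 16, other filters, averaged probe sets, unshared probe sets, the 2 arrays alone and other fold limits. Promoters were 250 bases before the first listed start of each gene, found for 10031 of the 12307 genes. The steps were tested on simulated data in which only genes well above the floor were altered. Changes from near the floor were therefore not covered, and recovery was required only at 4-fold and more. All steps ran in Python 3.11.15 with pandas 2.3.3, numpy 2.4.6 and, for the figures, matplotlib 3.10.9.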

Additional observations from a re-analysis of the deposited data

Results flagged for a closer look

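Among the genes chosen for naming, 19 lay at least 2-fold from the control array on opposite sides with the SETD8 siRNAs. The difference between the siRNAs was not tested, since each has 1 array, and both values use the same control array. Values are log2 fold changes with SETD8 siRNA 1 and then SETD8 siRNA 2. Lower with SETD8 siRNA 1 and higher with SETD8 siRNA 2 were CXCL12 (-5.08 and 1.44), NOG (-2.35 and 2.71), FGF1 (-1.87 and 1.62), EGF (-1.59 and 1.22), CNN1 (-1.17 and 1.24) and P3H2 (-1.09 and 1.49). Higher with SETD8 siRNA 1 and lower with SETD8 siRNA 2 were COL5A3 (1.10 and -2.14), ITGB8 (1.45 and -3.33), SMAD1 (1.53 and -1.70), TFPI2 (1.59 and -2.56), SPP1 (1.82 and -1.72), WNT7B (1.89 and -1.86), IL13RA2 (2.13 and -1.11), PLA2G4A (2.19 and -1.58), LEF1 (2.30 and -1.43), MMP10 (3.70 and -1.76), IL1B (6.25 and -2.23), CXCL5 (6.41 and -1.38) and IL1A (6.90 and -1.10). Over all tested genes 39 rose with SETD8 siRNA 1 and fell with SETD8 siRNA 2, and 43 did the reverse. For WNT7B the SETD8 siRNA 2 signal lay under the floor, so its second value is a bound. The rise of IL1A rests on 1 of its 2 probe sets. With SETD8 siRNA 2 the fall of CXCL5 and the rise of CXCL12 each rest on 1 of 2 usable probe sets. The other probe sets gave 0 for CXCL5 and 0.36 for CXCL12.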

How the results depend on the processing

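No paired analysis was possible because each siRNA has 1 array, and leaving out a replicate was not possible for the same reason. Of the 269 named genes, 267 kept their side of the 2-fold limit with arrays scaled to 1 median or quantile normalized, 263 with log2(signal + 16) in place of the floor, 233 with probe sets averaged and 203 of 220 with probe sets that can match several transcripts left out. Reversed were GPC3 (-0.43 with probe sets averaged), IL1A (-0.50 with shared probe sets left out), and SPDEF (-0.35) and MMP28 (0.92) with the brightest probe set chosen on the control and SETD8 siRNA 1 arrays alone. KMT5A came to -0.64 averaged and -0.48 with shared probe sets left out.

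Counts moved by over 1.5 times as follows, with the cause not tested unless the setting itself changes how many genes are tested or the limit used. Without a filter 1543 genes rose and 1698 fell, 149 large increases and 81 large decreases were absent with SETD8 siRNA 2, and 8 inflammatory members fell. With the filter at the 75th percentile 313 rose and 460 fell, 33 and 22 were absent, 38 inflammatory members rose and 2 fell, 18 MAP kinase members rose and 7 fell, and 106 cell cycle members fell. With a 1.5-fold limit 1569 rose and 2023 fell, 9 inflammatory members fell, 46 MAP kinase members rose and 22 fell, 72 matrix members rose and 50 fell, and 26 cell cycle members rose. With a 3-fold limit 305 rose and 394 fell, 3 inflammatory members fell, 17 MAP kinase members rose and 8 fell, 19 matrix members rose and 11 fell, and 4 cell cycle members rose. Inflammatory members that fell numbered 3 with quantile normalization, 3 with log2(signal + 16) and 2 with probe sets averaged. With shared probe sets left out 18 MAP kinase members rose. With the filter on the control array alone, a setting chosen after seeing the data, 81 large decreases were absent. Increases made up 41.4% of the 1629 calls, 31.0% with that filter, 47.6% without a filter and 39.8% to 46.8% under the other settings. Signals near background and near the top of the range limit the precision of fold changes, and 1 array per siRNA limits all of them.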

Other observations

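Further pathway lists were counted with SETD8 siRNA 1. Of 28 genes of folding and degradation in the endoplasmic reticulum 4 rose and 0 fell, with a median log2 fold change of 0.36. The stress sensor ERN1 rose by 1.45 and its chaperone target DNAJB9 had signals of 2717.9, 6605.3 and 5698.0 in the order control, SETD8 siRNA 1 and SETD8 siRNA 2. EDEM1, which helps to degrade misfolded glycoproteins, had 1424.5, 3254.9 and 1420.1, and the main chaperone HSPA5 had a log2 value of 0.56. Of 20 glycolysis genes 3 rose and 0 fell: hexokinase HK2 had 1199.4, 5308.0 and 3650.2 and the regulatory kinase PFKFB3 2003.5, 6024.0 and 3491.7, while PFKFB4 rose by 1.20. With their probe sets averaged, HK2 and PFKFB4 came to 0.76 and 0.60. GAPDH had 23754.8, 25397.4 and 25310.0. The 21 genes of sterol synthesis and uptake gave 0 higher and 0 lower, with a median of 0.02. The amino acid response list gave 1 higher (CHAC1) and 2 lower (SLC1A4 and SLC7A11) of 26. Averaged over probe sets SLC1A4 came to -0.80 and SLC7A11 to -0.81, and SLC1A4 to -0.22 with shared probe sets left out. Of 21 NRF2 targets 3 fell, the aldo-keto reductases AKR1C1, AKR1C2 and AKR1C3, which are near-identical copies. AKR1C1 came to -0.69 and AKR1C2 to -0.66 with probe sets averaged, and AKR1C2 to 0.00 with shared probe sets left out, whereas AKR1C3 lay between -1.33 and -1.11 under the settings run. The 37 ribosomal protein genes lay between -0.08 and 0.37.

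Wnt antagonists and ligands went both ways, with 4 of 14 higher and 2 lower. DKK2 had 66.9, 959.6 and 520.6, and its log2 value of 3.84 came to 1.11 with its probe sets averaged, whereas DKK1 and SFRP1 fell. LEF1, a transcription factor at the end of the Wnt pathway, rose with SETD8 siRNA 1 and lay under the control with SETD8 siRNA 2, at 181.7, 897.5 and 67.5, and its rise of 2.30 came to 1.00 averaged. In the IGF list 3 of 16 rose. The protease PAPPA, which frees IGF from binding proteins, had 2961.4, 13165.0 and 5042.7 and the hormone STC1, which inhibits it, had 4185.0, 28481.7 and 9593.1, both higher with SETD8 siRNA 1 than on the other arrays. These lists were read against 5.48% of all tested genes higher and 7.75% lower.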
